A study of Danio rerio with 6 samples.

Results

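The nuclear genes of respiratory complexes II to V were examined in regenerating tail fins of zebrafish larvae treated with rapamycin or with the solvent alone. They were chosen by symbol, as the *sdh*, *uqcr*, *uqcc*, *cyc1*, *cycs*, *cox* and *atp5* genes without the genes of mitochondrial DNA, which gave 76 of 32057 gene IDs in the count table. The rapamycin group (replicates 4 to 6) was treated with 1 µM rapamycin in DMSO from 2 dpf (days post fertilization), and the control group (replicates 1 to 3) received DMSO alone. All larvae were wild type, all tail fins were amputated at 3 dpf, and each group had 3 libraries made by SMART-seq, a method that amplifies cDNA from small amounts of RNA. Each library came from 50 pooled fins that had regenerated for 24 h (24 hpa, hours post amputation), so a replicate is a pool and larvae were not measured singly.

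The respiratory complexes of the inner mitochondrial membrane turn the oxidation of nutrients into ATP. Complex II, succinate dehydrogenase, is also an enzyme of the TCA cycle and passes electrons from succinate to ubiquinone, complex III passes them on to cytochrome c, and complex IV, cytochrome c oxidase, passes them to oxygen. Protons pumped by complexes III and IV return through complex V, the ATP synthase, whose rotating c ring drives the catalytic head. Complexes III, IV and V join nuclear subunits with subunits made from mitochondrial DNA, and assembly factors insert their metals, hemes and subunits without staying in the finished complex. Rapamycin blocks mTOR complex 1, a kinase complex that promotes protein synthesis and growth.

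The nuclear genes of complexes II to V were mostly lower in the rapamycin fins. The ATP synthase and complex IV held most of the genes that passed the test, and also most of the genes tested. At an unadjusted p under 0.05, 83.3% of ATP synthase, 66.7% of complex III, 50% of complex IV and 40% of complex II subunits were lower. Of the 73 genes that passed the low-count filter, 10 fell (13.7%), 0 rose and 63 did not pass, where 3.27% of all 19778 tested genes fell and 1.97% rose. A gene is said to have fallen or risen at an adjusted p under 0.05 in edgeR's quasi-likelihood test, adjusted by Benjamini and Hochberg over all tested genes. The log2 fold change, rapamycin over control, was below 0 in 68 of the 73 genes, against 49.9% of all tested genes. Its median was -0.58, with a range of -1.63 to 0.51, and the median of all tested genes was 0.00. The rapamycin libraries all lay below the control libraries in 40 genes (54.8%, against 15.9% of all tested genes) and all lay above them in 1 gene (14.8% of all tested genes did). At an unadjusted p under 0.05, 43 genes were lower (58.9%, against 13.3%) and 0 were higher (against 10.1%). DESeq2 called 28 lower (38.4%, against 7.78%) and 0 higher (against 5.06%), and limma-voom called 10 lower (against 3.42%) and 0 higher (against 2.86%). When a log2 fold change of at least 1 in size was asked for in addition, 4 genes were lower and 0 higher, where 2.61% and 1.49% of all tested genes were.

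**Figure D1:**
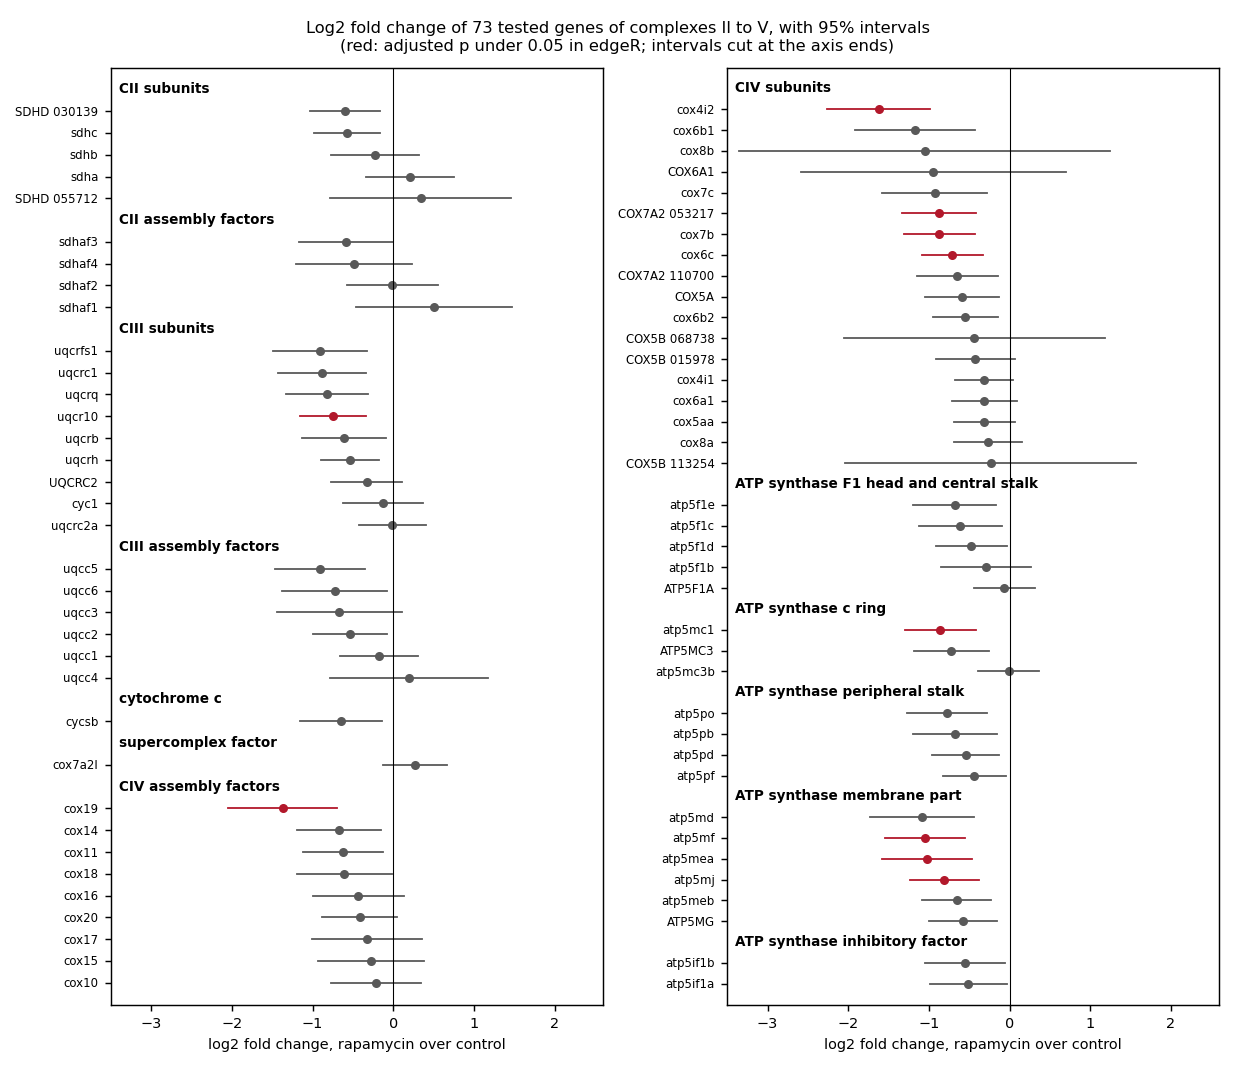
Each point is the log2 fold change of 1 gene, rapamycin over control, in edgeR (3 libraries per group), and each line its 95% interval, grouped by the role of the protein, with genes that fell in red. Nearly all points lie left of 0, and most red points lie in complex IV and the ATP synthase, which also have the most points. Numbers after a name are the last digits of its gene ID.

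The sum over all of these genes showed how the libraries were placed. It was 6996, 7007 and 7034 CPM (a gene's counts relative to its library's total, scaled by TMM) in rapamycin replicates 4 to 6, and 7349, 11564 and 10510 CPM in control replicates 1 to 3. The rapamycin libraries lay within a narrow band (7012 ± 19.9 CPM, SD, n = 3) and the control libraries were spread (9808 ± 2194 CPM, SD, n = 3), with control replicate 1 closest to the rapamycin libraries. Control replicate 1 was the lowest control library in 60 of 73 genes, and control replicate 2 the highest in 59. The mean of the rapamycin libraries was lower than control replicate 1 in 53 of 73 genes, lower than control replicate 2 in 71 and lower than control replicate 3 in 64. The median log2 ratio of that mean to the control library was -0.19 for replicate 1, -0.85 for replicate 2 and -0.56 for replicate 3. The coefficient of variation over the libraries of a group was larger in the control than in the rapamycin group in 69 of 73 genes, with medians of 7.53% in the rapamycin group and 24.5% in the control group.

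**Figure D2:**
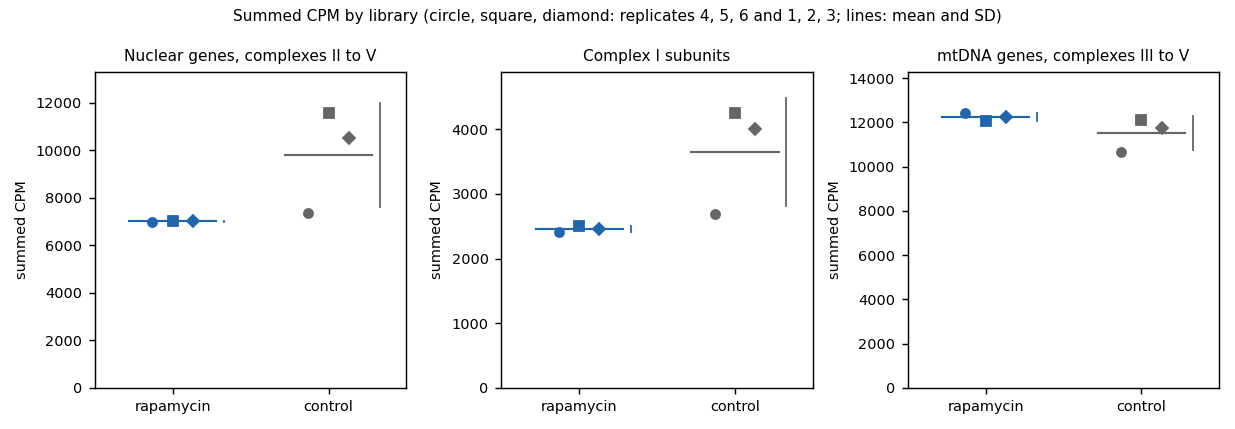
Summed CPM in each library for the 76 nuclear genes of complexes II to V, for 40 genes named as complex I subunits and for 6 genes of mitochondrial DNA, with rapamycin libraries on the left and control libraries on the right. Lines give the mean and SD of 3 libraries. In both nuclear sums control replicate 1 lies nearest to the rapamycin libraries, and the mitochondrial DNA sum overlaps between the groups.

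The 6 libraries held 49055607 to 54162044 counts, with TMM factors of 0.901 to 1.14, so 3 counts stood for 0.0489 to 0.0679 CPM in a library. The genes of complexes II to V have a short gene span, which is the distance a gene covers on its chromosome. Their median span was 4972 bases over the 61 with a span, against 17342 bases over all tested genes with a span (68.8% of those tested). Each gene's deviation from its mean log2 CPM over the 6 libraries was set against span by Spearman's correlation. It was 0.30, 0.24 and 0.16 in rapamycin replicates 4 to 6 and 0.21 in control replicate 1. In control replicates 2 and 3 it was -0.34 and -0.29. The cause of this trend was not tested. With the trend of each library with span removed, 2 of 61 genes fell (*cox4i2* and *atp5mf*), a share near that of all 13612 genes then tested (3.44%), and the median log2 fold change was -0.34, against 0.02 for all of these genes. Without the correction, the same 61 genes gave 9 that fell, where 4.1% of the 13612 did, and a median of -0.55.

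Single markers of several cell types differed between the groups as well. Summed epidermal markers were at 52616 to 64663 CPM in rapamycin and 42576 to 54064 CPM in control libraries (2 of 9 tested markers rose). Fin mesenchyme markers were at 58643 to 61319 CPM in rapamycin and 46982 to 107840 CPM in control libraries (1 of 8 rose). Of the 8, 6 had a log2 fold change below 0 (median -0.26). At an unadjusted p under 0.05, 2 were lower and 1 was higher. Markers of the main tissues of a larval fin were thus present in every library. Ionocyte markers were at 335 to 361 CPM in rapamycin and 133 to 245 CPM in control libraries, a sum made up almost wholly of *ca2* (328 to 354 CPM in rapamycin and 122 to 234 CPM in control libraries), which rose. The other 5 tested ionocyte markers had log2 fold changes of -1.26 to -0.34 and did not pass. Erythrocyte markers were at 21.2 to 36.8 CPM in rapamycin and 84.7 to 105 CPM in control libraries (2 of 3 fell), and pigment cell markers at 83.4 to 129 CPM in rapamycin and 141 to 211 CPM in control libraries. Of the 5 tested pigment markers *gch2* fell (41.4 to 82.5 CPM in rapamycin and 96.7 to 174 CPM in control libraries), while *pmela*, *dct* and *xdh* had log2 fold changes of 0.44, 0.40 and 0.10 and the median log2 fold change of the list was 0.10. Neutrophil markers were at 380 to 525 CPM in rapamycin and 187 to 290 CPM in control libraries, mostly from *mmp9* and *mmp13a*, of which *mmp13a* rose, while *lyz* and *npsn* had log2 fold changes of -0.44 and -0.13. Of these sums only that of the erythrocyte markers had all its tested genes on the same side of 0. Skeletal muscle markers were at 491 to 612 CPM in rapamycin and 522 to 921 CPM in control libraries (1 of 12 fell). The muscle sums overlapped, and control replicate 1 was the highest of the 6 libraries in them. They came mostly from *smyhc1* and *actc1b*, whose log2 fold changes were -0.05 and -0.39. Singly, the muscle markers leaned to lower levels in rapamycin: 11 of 12 had negative log2 fold changes (median of the 12: -0.39), and *neb* was at 0.98. Of the 12, 5 were lower at an unadjusted p under 0.05 (41.7%, against 13.3% of all tested genes) and 0 were higher. Macrophage markers were at 34.6 to 40.1 CPM in rapamycin and 23.2 to 40.5 CPM in control libraries (2 of 6 fell, and *c1qa* and *c1qc* were at 0 in rapamycin replicates 4 and 6). The macrophage markers *csf1ra*, *csf1rb* and *marco* had log2 fold changes of 0.76, 0.27 and 0.20 and did not pass. Endothelial markers were at 19.4 to 30.6 CPM in rapamycin and 25.7 to 27.9 CPM in control libraries, and markers of neurons and glia at 1.38 to 5.43 CPM in rapamycin and 2.24 to 4.50 CPM in control libraries. None of the markers found in the table was at 0 in all libraries. The part of cell composition in the results was not tested, and in whole fins fewer cells of a type and less RNA per cell cannot be told apart.

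Complex II held none of the genes that fell. Its 5 tested subunit IDs had a median log2 fold change of -0.23, and 0 were called by edgeR, where 3.27% of all tested genes fell. At an unadjusted p under 0.05, 2 were lower (40%, against 13.3% of all tested genes), and DESeq2 called 2 lower (40%, against 7.78%). *sdha*, the flavoprotein that oxidizes succinate, had 184, 172 and 166 CPM in rapamycin replicates 4 to 6, and 96.2, 188 and 168 CPM in control replicates 1 to 3. Control replicate 1 was low, the other control libraries lay close to the rapamycin libraries, and the log2 fold change was 0.21 (standard error 0.24, adjusted p = 0.636 from edgeR). *sdhb*, the iron-sulfur subunit, overlapped too (162 ± 2.86 CPM in the rapamycin and 189 ± 60.8 CPM in the control group, SD, n = 3 each).

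The membrane anchors of complex II differed from *sdha* in where their libraries lay. *sdhc* was at 66.9, 79.9 and 78.6 CPM in rapamycin libraries and at 94.2, 131 and 111 CPM in control libraries, without overlap (log2 fold change -0.58, standard error 0.18, adjusted p = 0.0959 from edgeR). *SDHD*, the partner of *sdhc*, is the name of a pair of gene IDs. ENSDARG00000030139 was at 62.2, 66.9 and 66.6 CPM in rapamycin and 74.3, 115 and 107 CPM in control libraries (log2 fold change -0.60, adjusted p = 0.105 from edgeR), while ENSDARG00000055712 stayed between 0.679 and 1.52 CPM in all 6 libraries (log2 fold change 0.34, adjusted p = 0.717 from edgeR). How reads were shared between IDs of the same name is not known, so their separate values are uncertain.

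The 4 assembly factors of complex II, *sdhaf1* to *sdhaf4*, all overlapped between the groups, as did 13706 of all 19778 tested genes. Their median log2 fold change was -0.25. Of the 4, 0 were called by edgeR or DESeq2, where 3.27% and 7.78% of all tested genes were lower. At an unadjusted p under 0.05, 1 was lower (25%, against 13.3%). *sdhaf2*, which in yeast and human cells is needed to attach the flavin to SDHA, was at 12.92, 13.01 and 12.79 CPM in rapamycin and 9.28, 17.1 and 12.7 CPM in control libraries. *sdhaf1*, which serves the iron-sulfur subunit in human cells, had the highest log2 fold change of all 73 genes (0.51, standard error 0.43, adjusted p = 0.512 from edgeR) at 2.48, 3.41 and 2.18 CPM in rapamycin and 2.35, 2.40 and 0.928 CPM in control libraries.

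In complex III, 1 of 9 subunits fell (11.1%, against 3.27% of all tested genes). The median log2 fold change was -0.61, with all 9 below 0 (against 49.9% of all tested genes). *uqcr10*, a small subunit of the membrane part, fell to 65.8, 70.0 and 67.4 CPM in rapamycin replicates 4 to 6, against 108, 138 and 94.3 CPM in control replicates 1 to 3. Its rapamycin libraries agreed closely and all lay below the lowest control library, replicate 3 (log2 fold change -0.74, standard error 0.18, adjusted p = 0.0487 from edgeR).

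None of the redox and core subunits of complex III passed in edgeR. DESeq2 called *uqcrfs1* (adjusted p = 0.00951 from DESeq2) and *uqcrc1* (adjusted p = 0.00656 from DESeq2) lower. *uqcrfs1*, the Rieske iron-sulfur protein, was at 129, 123 and 130 CPM in rapamycin and 143, 278 and 296 CPM in control libraries, where control replicate 1 lay close to the rapamycin libraries (log2 fold change -0.91, standard error 0.26, adjusted p = 0.0758 from edgeR). *cyc1*, cytochrome c1, which hands electrons to cytochrome c, was at 206, 201 and 196 CPM in rapamycin and 149, 251 and 259 CPM in control libraries, so the groups overlapped. Of the core proteins, *uqcrc1* was at 236, 244 and 235 CPM in rapamycin and 282, 494 and 539 CPM in control libraries, without overlap (log2 fold change -0.88, adjusted p = 0.0685 from edgeR). The other core protein has a pair of IDs. *UQCRC2* (ENSDARG00000071691) was at 113, 136 and 119 CPM in rapamycin and 117, 172 and 173 CPM in control libraries, with overlap (log2 fold change -0.33, adjusted p = 0.348 from edgeR). *uqcrc2a* was at 71.6, 61.8 and 71.6 CPM in rapamycin and 55.0, 74.3 and 77.1 CPM in control libraries, with a log2 fold change of -0.01 (95% interval -0.42 to 0.40) and a sign that depended on the setting. At an unadjusted p under 0.05, 6 of the 9 subunits were lower (66.7%, against 13.3% of all tested genes), and DESeq2 called 5 (55.6%, against 7.78%).

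None of the 6 assembly factors of complex III, *uqcc1* to *uqcc6*, was called by edgeR. At an unadjusted p under 0.05, 3 were lower (50%, against 13.3% of all tested genes), and DESeq2 called 1 lower (16.7%, against 7.78%). Their median log2 fold change was -0.60. The DESeq2 call was *uqcc5*, at 12.7, 11.6 and 10.6 CPM in rapamycin and 16.6, 29.5 and 19.0 CPM in control libraries (log2 fold change -0.91, adjusted p = 0.0685 from edgeR and 0.0119 from DESeq2). *uqcc1* and *uqcc2*, which act together on newly made cytochrome b in human cells, had log2 fold changes of -0.18 and -0.53.

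Cytochrome c, the soluble carrier between complexes III and IV, is represented by *cycsb* and *cycsa*. *cycsb* was at 127, 138 and 147 CPM in rapamycin and 147, 268 and 231 CPM in control libraries, and the highest rapamycin library reached past the lowest control library (log2 fold change -0.65, standard error 0.23, adjusted p = 0.129 from edgeR). *cycsa* had 0 counts in all 6 libraries and was not tested.

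*cox7a2l*, which in mammals joins complexes III and IV in supercomplexes, was the only gene of the 73 with every rapamycin library above every control library. It was at 41.8, 41.4 and 47.0 CPM in rapamycin and 30.6, 40.2 and 37.3 CPM in control libraries. The gap between the groups was small beside their spread (log2 fold change 0.27, 95% interval -0.13 to 0.67, adjusted p = 0.393 from edgeR).

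Complex IV gave 4 of the 10 genes that fell among its 18 tested subunit IDs (22.2% of the 18, against 3.27% of all tested genes). All 18 had a log2 fold change below 0 (median -0.62). At an unadjusted p under 0.05, 9 were lower (50%, against 13.3%), and DESeq2 called 7 lower (38.9%, against 7.78%). In 11 all rapamycin libraries lay below all control libraries (61.1%, against 15.9%). *cox4i2*, an isoform of subunit 4 known in mammals from the lung and from low oxygen, had the largest fall of all 73 genes. It was at 1.99, 2.14 and 1.88 CPM in rapamycin replicates 4 to 6, against 5.36, 5.84 and 7.36 CPM in control replicates 1 to 3. Here control replicate 1 lay with the other control libraries, well above all 3 rapamycin libraries (log2 fold change -1.63, standard error 0.29, adjusted p = 0.0161 from edgeR). *cox4i1*, the ubiquitous isoform of the same subunit in mammals, was at 154, 146 and 157 CPM in rapamycin and 175, 213 and 181 CPM in control libraries. These also did not overlap, but the difference, which did not pass, was small (log2 fold change -0.32, standard error 0.16, adjusted p = 0.274 from edgeR).

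The other subunits of complex IV that fell are small proteins that surround the catalytic core. *COX7A2* (ENSDARG00000053217) was at 73.8, 79.6 and 76.7 CPM in rapamycin and 107, 177 and 139 CPM in control libraries (log2 fold change -0.88, standard error 0.20, adjusted p = 0.0413 from edgeR). *cox7b* was at 94.4, 109 and 106 CPM in rapamycin and 148, 231 and 188 CPM in control libraries (log2 fold change -0.87, standard error 0.20, adjusted p = 0.0383 from edgeR). *cox6c* was at 61.5, 67.6 and 68.1 CPM in rapamycin and 98.4, 124 and 99.7 CPM in control libraries (log2 fold change -0.71, standard error 0.17, adjusted p = 0.0427 from edgeR). In each of these genes control replicate 2 was highest and all 3 control libraries lay above all 3 rapamycin libraries.

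*cox6b1*, a subunit on the side facing cytochrome c in mammals, was lower without passing in edgeR. It was at 4.09, 3.54 and 3.06 CPM in rapamycin and 5.81, 11.8 and 6.61 CPM in control libraries. The control values were led by replicate 2, the groups did not overlap, and the log2 fold change of -1.18 (standard error 0.33) had an adjusted p of 0.0720 from edgeR and 0.0123 from DESeq2. *cox7c* was at 83.1, 101 and 130 CPM in rapamycin and 119, 247 and 232 CPM in control libraries, with rapamycin replicate 6 above control replicate 1 (log2 fold change -0.93, standard error 0.29, adjusted p = 0.0941 from edgeR). The remaining 11 subunit IDs of complex IV had log2 fold changes of -1.05 to -0.23, and among them *cox8b*, *COX6A1* (ENSDARG00000054588) and a pair of the *COX5B* IDs stayed under 1 CPM in every library. *cox4i1l* and *cox7a1*, a muscle isoform in mammals, did not pass the filter. *cox4i1l* had 0 counts in each rapamycin library and 8, 7 and 0 counts in control libraries, and *cox7a1* had 6, 12 and 0 counts in rapamycin and 7, 6 and 0 counts in control libraries.

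Of the 9 *cox*-named assembly factors of complex IV, 1 fell (11.1%, against 3.27% of all tested genes). All 9 had a log2 fold change below 0 (median -0.44), against 49.9% of all tested genes. At an unadjusted p under 0.05, 4 were lower (44.4%, against 13.3% of all tested genes), and DESeq2 called 1 lower (11.1%, against 7.78%). In 5 all rapamycin libraries lay below all control libraries (55.6%, against 15.9%). *cox19*, a small protein of the intermembrane space that in yeast is needed to build the oxidase, fell to 2.95, 2.14 and 2.56 CPM in rapamycin replicates 4 to 6, against 4.95, 7.38 and 7.49 CPM in control replicates 1 to 3. All rapamycin libraries lay below control replicate 1, which was itself below the other control libraries (log2 fold change -1.37, standard error 0.30, adjusted p = 0.0340 from edgeR). *cox17*, a copper chaperone, was at 31.8, 43.6 and 47.8 CPM in rapamycin and 31.1, 74.2 and 48.97 CPM in control libraries, so the groups overlapped. *cox10* and *cox15*, which make the heme a of the oxidase, overlapped as well, with log2 fold changes of -0.22 and -0.28. *cox11*, which serves copper insertion, did not overlap (12.7, 15.1 and 14.0 CPM in rapamycin and 16.1, 25.1 and 23.2 CPM in control libraries), with an adjusted p of 0.131 from edgeR.

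**Figure D3:**
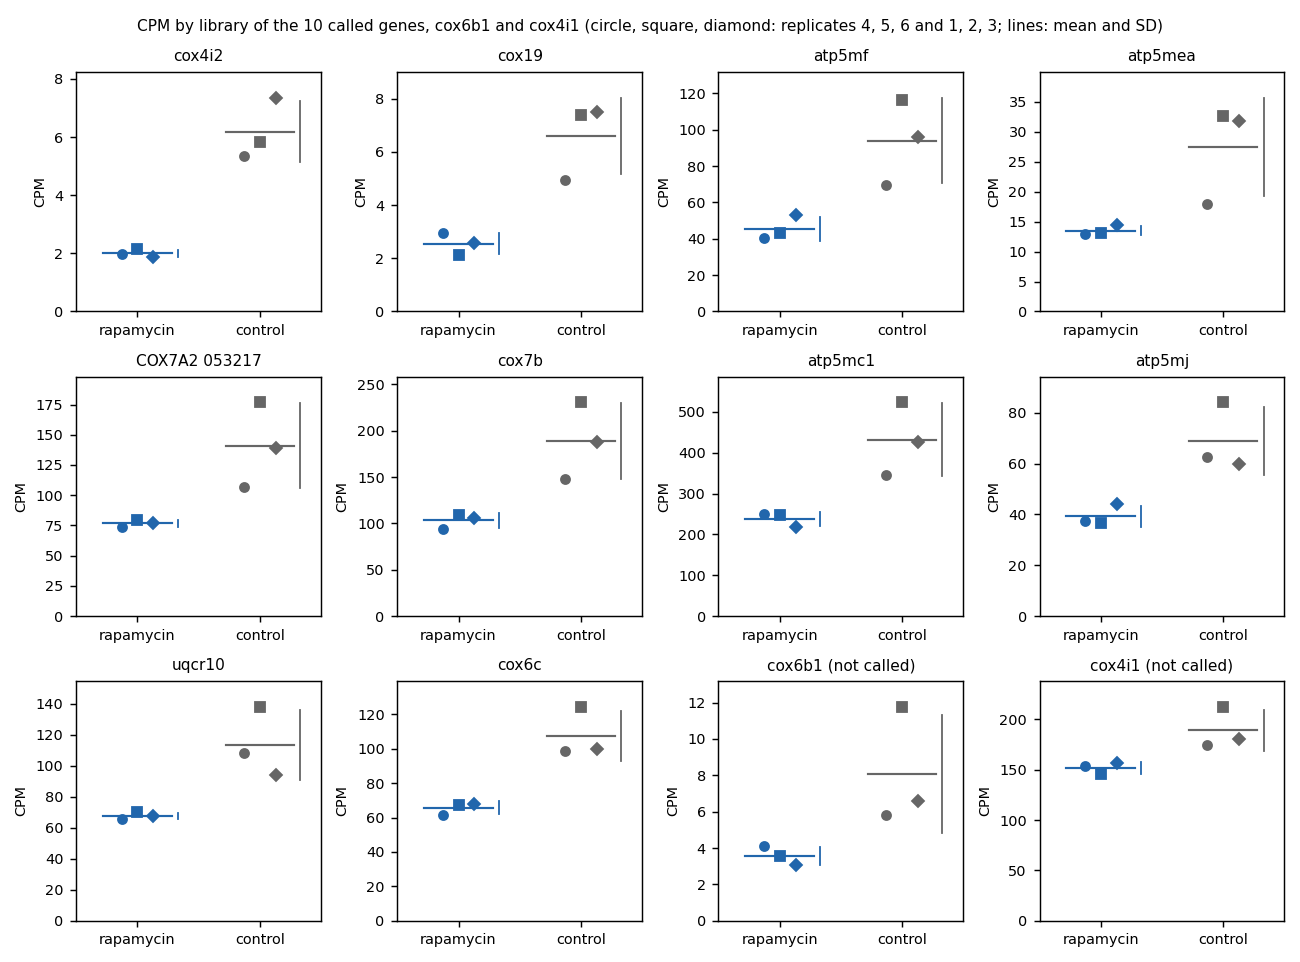
CPM in each library for the 10 genes that fell, and for *cox6b1* and *cox4i1*, which did not pass, with rapamycin on the left and control on the right of each panel (lines: mean and SD of 3 libraries). In all 12 panels the 3 rapamycin libraries lie below the 3 control libraries, and each vertical axis starts at 0.

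The ATP synthase held 4 of the 10 genes that fell, from its membrane part and its c ring. All 18 subunit genes had log2 fold changes under 0 (median -0.67). In 13 all rapamycin libraries lay below all control libraries (72.2%, against 15.9% of all tested genes). DESeq2 called 12 of the 18 lower (66.7%, against 7.78% of all tested genes) and edgeR 4 (22.2%, against 3.27%). By position in the enzyme the medians were -0.47 for the catalytic head and central stalk, -0.61 for the peripheral stalk, -0.73 for the c ring and -0.92 for the other small proteins of the membrane part.

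The membrane part, counted here without the c ring, includes proteins that hold ATP synthase dimers together. In all of its 6 genes the rapamycin libraries lay below the control libraries without overlap, as in 15.9% of all tested genes. The summed level of the 6 was 284, 292 and 307 CPM in rapamycin replicates 4 to 6, and 390, 601 and 494 CPM in control replicates 1 to 3. *atp5mf*, subunit f, fell to 40.3, 43.4 and 53.1 CPM in rapamycin libraries, against 69.5, 117 and 96.1 CPM in control libraries (log2 fold change -1.05, standard error 0.22, adjusted p = 0.0299 from edgeR). *atp5mea*, a gene of the dimer subunit e, fell to 12.99, 13.04 and 14.4 CPM in rapamycin libraries, against 17.98, 32.6 and 31.8 CPM in control libraries (log2 fold change -1.03, standard error 0.25, adjusted p = 0.0481 from edgeR). Control replicate 1 was the lowest control library in both genes. *atp5mj* fell to 37.2, 36.6 and 44.0 CPM in rapamycin libraries, against 62.4, 84.1 and 59.8 CPM in control libraries (log2 fold change -0.81, standard error 0.19, adjusted p = 0.0430 from edgeR).

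The 3 other genes of the membrane part were also lower in every rapamycin library and did not pass in edgeR. DESeq2 called all 6 lower, where it called 7.78% of all tested genes lower. *atp5md* was at 6.25, 7.35 and 11.2 CPM in rapamycin and 14.0, 22.2 and 16.5 CPM in control libraries (log2 fold change -1.09, standard error 0.28, adjusted p = 0.0597 from edgeR). *atp5meb*, the second gene of subunit e, and *ATP5MG*, of the dimer subunit g, had log2 fold changes of -0.66 and -0.58 (adjusted p = 0.0789 and 0.106 from edgeR).

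The c ring is built from many copies of a single protein that several genes encode. Of its 3 tested genes 1 fell (33.3%, against 3.27% of all tested genes). *atp5mc1* fell to 249, 247 and 217 CPM in rapamycin libraries, against 346, 524 and 426 CPM in control libraries (log2 fold change -0.86, standard error 0.20, adjusted p = 0.0393 from edgeR). *ATP5MC3* (ENSDARG00000017775) was at 197, 200 and 200 CPM in rapamycin and 243, 403 and 341 CPM in control libraries, without overlap (log2 fold change -0.73, adjusted p = 0.0749 from edgeR). *atp5mc3b* was at 432, 463 and 482 CPM in rapamycin and 409, 516 and 464 CPM in control libraries, the groups overlapped, and its log2 fold change was -0.01 (95% interval -0.39 to 0.37), with a sign that depended on the setting.

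None of the 5 genes of the head and central stalk was called by edgeR. At an unadjusted p under 0.05, 3 were lower (60%, against 13.3% of all tested genes), and DESeq2 called 1 lower (20%, against 7.78%). *atp5f1b*, the catalytic beta subunit, was at 923, 751 and 822 CPM in rapamycin and 661, 1143 and 1252 CPM in control libraries, where control replicate 1 was below all rapamycin libraries. *ATP5F1A*, the alpha subunit, was at 286, 262 and 266 CPM in rapamycin and 274, 324 and 254 CPM in control libraries, with a log2 fold change of -0.06. The gamma subunit gene *atp5f1c* was at 368, 369 and 373 CPM in rapamycin and 378, 644 and 671 CPM in control libraries, just without overlap (log2 fold change -0.61, adjusted p = 0.150 from edgeR).

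The peripheral stalk, which keeps the head from turning with the ring, had 4 genes with log2 fold changes of -0.77 to -0.44. In all 4 the rapamycin libraries lay below the control libraries without overlap, as in 15.9% of all tested genes. None was called by edgeR. At an unadjusted p under 0.05 all 4 were lower (against 13.3% of all tested genes), and DESeq2 called 3 (75%, against 7.78%). *atp5po*, which links stalk and head, was at 196, 208 and 197 CPM in rapamycin and 236, 408 and 383 CPM in control libraries (log2 fold change -0.77, adjusted p = 0.0758 from edgeR). The genes of the inhibitory factor that stops the enzyme from running backwards, *atp5if1a* and *atp5if1b*, had log2 fold changes of -0.51 and -0.55 and did not pass in edgeR or DESeq2, though both were lower at an unadjusted p under 0.05.

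Subunits and assembly factors were set side by side over all complexes. Of 51 tested subunit and cytochrome c IDs, 9 fell (17.6%) and the median log2 fold change was -0.61. Of 19 tested assembly factors named *sdhaf*, *uqcc* or *cox*, 1 fell (5.26%) and the median was -0.48. DESeq2 called 26 of the 51 (51.0%) and 2 of the 19 (10.5%) lower. Of all tested genes 3.27% fell in edgeR and 7.78% were lower in DESeq2, so by adjusted p the shares of the assembly factors lay near those of all genes. By other measures they did not: 17 of the 19 had a log2 fold change below 0. At an unadjusted p under 0.05, 8 of the 19 were lower (42.1%, against 13.3% of all tested genes) and 33 of the 51 (64.7%). All rapamycin libraries lay below all control libraries in 8 of the 19 (42.1%, against 15.9%) and 31 of the 51 (60.8%). The difference between the classes was not tested, and many assembly factors have low counts.

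Ratios of paralogs within a library do not depend on how the libraries are scaled. For 12 pairs, the log2 ratio of the counts (0.5 added to each) was compared between the groups by an exact two-sided permutation test, which cannot go below 0.1 with 3 against 3 libraries, and adjusted over the 12 pairs the lowest value was 0.3. No pair can therefore pass, and the values are given as they are. Some pairs were matched by gene ID after the table was seen, since their symbols carry no paralog letter.

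The subunit 4 isoforms had the largest difference. The log2 ratio of *cox4i2* to *cox4i1* was -6.26, -6.08 and -6.38 in rapamycin replicates 4 to 6, and -5.03, -5.18 and -4.62 in control replicates 1 to 3. The minor isoform thus made up a smaller share of the subunit 4 counts in each rapamycin library, with a difference of -1.30 and no overlap (exact permutation p = 0.1, adjusted 0.3).

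Among the c ring genes the ratio of *atp5mc1* to *atp5mc3b* was lower in the rapamycin group and that of *atp5mc3b* to *ATP5MC3* was higher. The log2 ratio of *atp5mc1* to *atp5mc3b* was -0.79, -0.91 and -1.15 in rapamycin and -0.24, 0.02 and -0.12 in control libraries (difference -0.84, exact permutation p = 0.1, adjusted 0.3). That of *atp5mc3b* to *ATP5MC3* was 1.13, 1.21 and 1.27 in rapamycin and 0.75, 0.36 and 0.44 in control libraries (difference 0.69, exact permutation p = 0.1, adjusted 0.3). These ratios share *atp5mc3b*, and in both the 3 control libraries, replicate 1 included, lay on the same side of the 3 rapamycin libraries.

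The ratio of *SDHD* ENSDARG00000055712 to ENSDARG00000030139 did not overlap either (-5.93, -6.14 and -5.45 in rapamycin and -6.65, -6.43 and -7.28 in control libraries, difference 0.95, exact permutation p = 0.1, adjusted 0.3), and rests on the low counts of the first. The log2 ratio of *cox6b2* to *cox6b1* overlapped, at 5.36, 5.73 and 5.88 in rapamycin and 5.19, 4.66 and 5.38 in control libraries (difference 0.58, exact permutation p = 0.2, adjusted 0.3). Of the other 7 pairs, *COX5A* to *cox5aa*, *UQCRC2* to *uqcrc2a* and *atp5mea* to *atp5meb* had differences of -0.27, -0.31 and -0.34 (exact permutation p = 0.2 each, adjusted 0.3). *COX6A1* (ENSDARG00000054588) to *cox6a1* differed by -0.58 (exact permutation p = 0.3), *COX7A2* ENSDARG00000110700 to ENSDARG00000053217 by 0.21 (p = 0.4), *cox8b* to *cox8a* by -0.31 (p = 0.7) and *atp5if1b* to *atp5if1a* by -0.02 (p = 1), and all 7 overlapped.

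**Figure D4:**
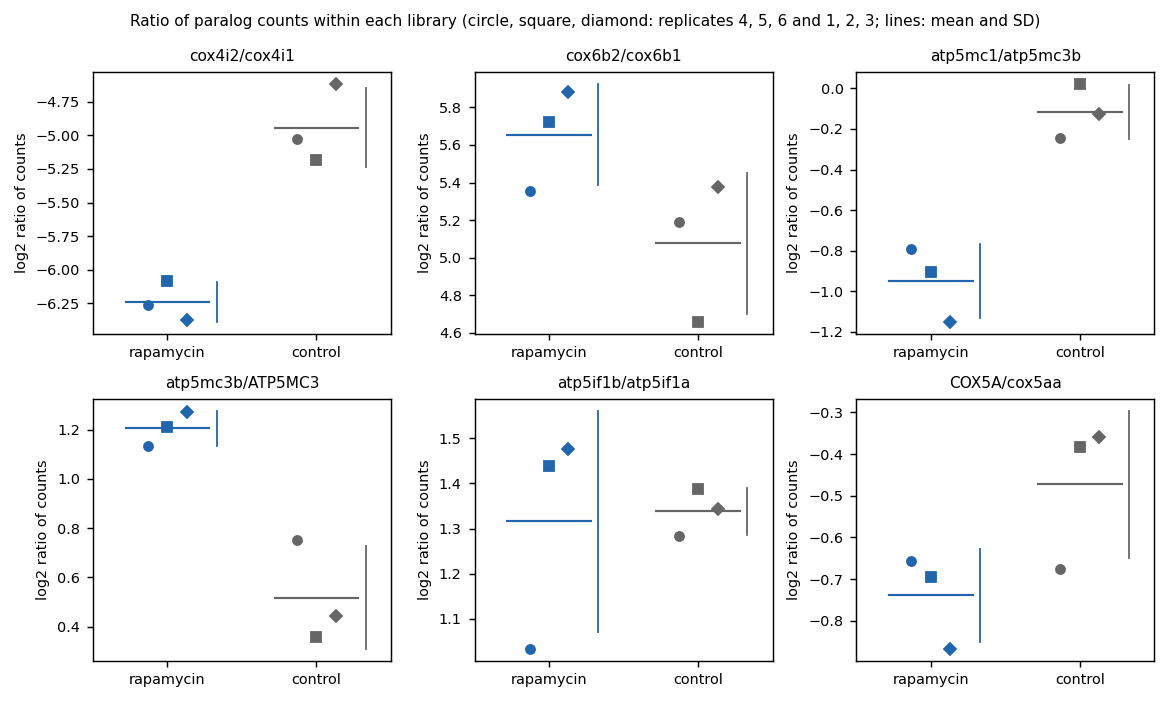
Log2 ratio of the counts of paralogs in each library for 6 of the 12 pairs, with rapamycin on the left and control on the right of each panel (lines: mean and SD of 3 libraries). The groups do not overlap for *cox4i2* to *cox4i1* and for the c ring pairs, and overlap in the other panels.

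The subunits of complexes III to V made from mitochondrial DNA lay on both sides of 0, with 4 of 6 log2 fold changes below it. Of these 6 genes edgeR called 0, and their median log2 fold change was -0.10. At an unadjusted p under 0.05, 1 was lower and 1 higher, where 13.3% and 10.1% of all tested genes were. DESeq2 called 1 higher (against 5.06% of all tested genes). Their summed level was 12419, 12076 and 12254 CPM in rapamycin and 10652, 12129 and 11728 CPM in control libraries, so the groups overlapped. *MT-CO1*, the catalytic subunit of complex IV, was at 3979, 3844 and 4019 CPM in rapamycin and 2793, 2650 and 2099 CPM in control libraries, with all rapamycin libraries above all control libraries (log2 fold change 0.65, standard error 0.19, with an adjusted p of 0.0747 in edgeR and 0.00729 in DESeq2). *MT-CYB*, the cytochrome b of complex III, was at 1407, 1298 and 1426 CPM in rapamycin and 1609, 1806 and 2113 CPM in control libraries (log2 fold change -0.42, adjusted p = 0.198 from edgeR). *MT-CO2* and *MT-CO3*, the other complex IV subunits of this kind, had log2 fold changes of -0.07 and 0.08 with overlap.

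A further list held 30 tested genes with other names, of assembly factors and of proteins that act on mitochondrial mRNAs. Of these 1 fell (3.33%, against 3.27% of all tested genes), and the median log2 fold change was -0.39, with 28 of 30 below 0. At an unadjusted p under 0.05, 7 were lower (23.3%, against 13.3%) and 0 higher. DESeq2 called 3 lower (10%, against 7.78%) and 0 higher. *slirp*, whose protein binds mitochondrial mRNAs together with LRPPRC in mammals, fell to 14.9, 16.6 and 17.1 CPM in rapamycin libraries, against 24.2, 38.7 and 31.9 CPM in control libraries (log2 fold change -0.96, standard error 0.21, adjusted p = 0.0368 from edgeR). *lrpprc* itself overlapped and had the highest log2 fold change of the 30 (0.40, adjusted p = 0.304 from edgeR). *surf1*, an early factor of complex IV, overlapped with a log2 fold change of -0.17.

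Of the 39 tested genes named as complex I subunits 3 fell (7.69%, against 3.27% of all tested genes), and the median was -0.60. At an unadjusted p under 0.05, 27 were lower (69.2%, against 13.3%), and DESeq2 called 17 lower (43.6%, against 7.78%). The same shares for complexes II to V were 58.9% and 38.4%. Those that fell in edgeR were *ndufs3* (-0.92, adjusted p = 0.0475 from edgeR), *ndufa12* (-0.83, adjusted p = 0.0450) and *ndufa4b* (-1.76, adjusted p = 0.0332). The protein of the last gene is named for complex I and in mammals sits in complex IV. The list, taken by symbol, also held *NDUFA4* and *NDUFA4L2*, so its counts and sum are not of complex I alone. *ndufa4b* was at 2.22, 1.60 and 1.54 CPM in rapamycin and 9.12, 4.64 and 4.32 CPM in control libraries, so here control replicate 1 was the highest library. The genes named as complex I subunits summed to 2413, 2497 and 2466 CPM in rapamycin and 2691, 4252 and 4010 CPM in control libraries. Control replicate 1 was placed as in the sum over complexes II to V. Of 75 mitochondrial ribosomal proteins 4 fell (5.33%), and the median was -0.48. They were *mrps14*, *mrpl16*, *mrpl34* and *mrpl41*, with log2 fold changes of -1.22 to -1.09. At an unadjusted p under 0.05, 39 of the 75 were lower (52%), and DESeq2 called 17 lower (22.7%). Of 13 TCA cycle genes 0 were called by edgeR (0 lower and 1 higher at an unadjusted p under 0.05, and 1 higher in DESeq2), with a median of -0.25.

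A list of 13 tested regulators held those of nuclear respiratory genes and also the mitochondrial factors *tfam*, *tfb1m* and *tfb2m*. Of the 13 edgeR called 0, with 1 lower and 2 higher at an unadjusted p under 0.05. DESeq2 called 1 lower and 1 higher, and the median was 0.08. The lower gene was *tfam* each time. The higher genes at an unadjusted p were *hcfc1b* and *pprc1*, of which DESeq2 called *hcfc1b*. Of the 13, 5 had a log2 fold change below 0. With 3 libraries per group, a gene that did not pass is not shown to be unchanged. *tfam*, the packaging and transcription factor of mitochondrial DNA, was at 29.0, 31.4 and 33.8 CPM in rapamycin and 38.9, 54.6 and 57.8 CPM in control libraries (log2 fold change -0.68, standard error 0.20, adjusted p = 0.0772 from edgeR). *hcfc1b*, a co-regulator, was at 76.2, 66.8 and 59.7 CPM in rapamycin and 51.3, 20.9 and 18.3 CPM in control libraries (log2 fold change 1.16, adjusted p = 0.0934 from edgeR). *pprc1* was at 25.0, 20.6 and 27.9 CPM in rapamycin and 19.6, 12.9 and 10.1 CPM in control libraries (log2 fold change 0.79, adjusted p = 0.117 from edgeR). *tfam*, *hcfc1b* and *pprc1* had no overlap between the groups and did not pass in edgeR. Of 9 tested genes of the hypoxia response or of *cox4i2* regulation in mammals, edgeR called 0, with 1 lower and 1 higher at an unadjusted p under 0.05 and 1 lower in DESeq2, and their median was 0.17.

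The calls depended on single libraries more than the direction did. Without control replicate 1, 54 of the 73 genes were lower (15.6% of all 20220 genes then tested were), and 59 at an unadjusted p under 0.05 (20.7% of all). All 6 genes of the membrane part, 4 of 4 of the peripheral stalk and 8 of 9 complex III subunits were then among them. Without control replicate 3, 3 genes fell (2.32% of all did), and 39 were lower at an unadjusted p under 0.05 (11.3% of all). Without control replicate 2, or without any rapamycin replicate, edgeR called 0 of the 73, with 21 lower at an unadjusted p under 0.05 without control replicate 2 (9% of all) and 24 to 30 without a rapamycin replicate (9.62% to 9.73% of all), and 0 higher each time. Over all tested genes the number called lower was then 65 to 79. The median log2 fold change of the 73 genes stayed between -0.73 and -0.43 when any library was left out.

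*cox4i2* kept its call in 11 of 15 alternative settings. It lost it without control replicate 2 and without each rapamycin replicate (adjusted p = 0.0688 to 0.0992 from edgeR), and its log2 fold change lay between -1.73 and -1.40 in all 15. The other 9 genes that fell lost their calls in 5 to 7 settings and had log2 fold changes below 0 in each.

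**Figure D5:**
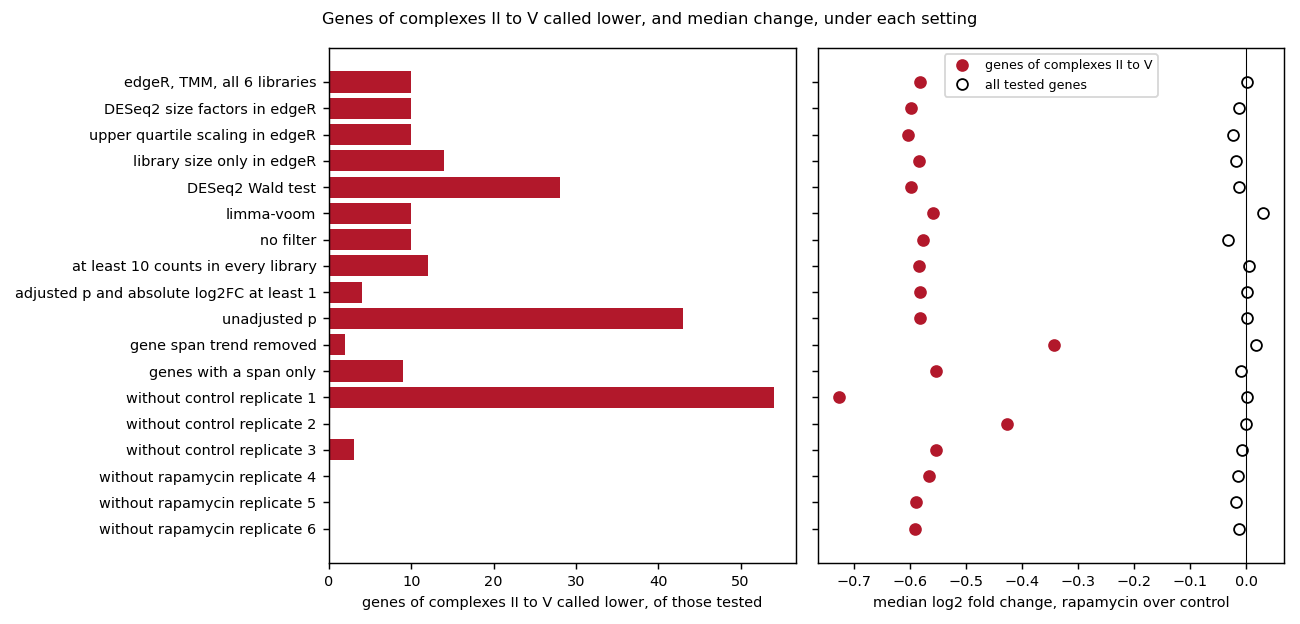
Left, the number of genes of complexes II to V called lower under each setting. Right, the median log2 fold change, rapamycin over control, of these genes (filled) and of all tested genes (open). The number runs from 0 to 54 and is highest without control replicate 1, while each filled point lies left of 0 and of its open point.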

How the data were processed

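SMART-seq libraries of regenerated larval fins were used, 3 from rapamycin-treated and 3 from control larvae. The authors deposited a table of raw counts, whole numbers for 32057 zebrafish gene IDs of Ensembl. The processing notes name the build mm10, while the IDs are zebrafish IDs; the aligner, the counting tool and any use of strand are not given in the sources read. A table of gene names gave symbols for 28988 IDs. Symbols in capitals that stand for a single ID and are listed in RefSeq are printed in lower case. Gene spans come from RefSeq's GRCz12tu, matched by symbol, and no coordinates are printed.

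Counts were filtered with filterByExpr, scaled by TMM and tested with edgeR 4.0.16 (robust quasi-likelihood, no covariate, R 4.3.3), with p-values adjusted by Benjamini and Hochberg over 19778 genes. The standard error is the fold change over the root of F. DESeq2 1.42.0, limma-voom (limma 3.58.1), other scalings and filters, a loess correction (span 0.5) for gene span, and leaving out each library were alternatives. The test was tried on counts simulated for each gene separately, with no shift shared by many genes within a library. That trial therefore does not cover differences such as those of control replicate 1. The members and lists were chosen with earlier results of these data known. Named genes are all genes called by edgeR, both genes of each paralog pair, genes the paper names and genes that failed the filter. The 3 highest and 3 lowest uncalled log2 fold changes at a mean log2 CPM of at least 3 are also named. Any other gene named was chosen, for its role or its result, after its values were seen. *cox7a2l* was set apart from the complex IV subunits after the table was seen. The labels call the pools biological replicates and name no batch. Floors cover counting error only.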

Additional observations from a re-analysis of the deposited data

How the results depend on the processing

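No paired analysis was possible because the replicate numbers of the rapamycin group (4 to 6) and the control group (1 to 3) have none in common. Genes of complexes II to V called lower (10 of 73) numbered 28 with DESeq2, 43 at an unadjusted p, 4 with a log2 fold change of at least 1 in size asked for, 2 of 61 with the span trend removed, and 0 to 54 when each library was left out in turn. They numbered 9 to 14 under the other settings, 0 were called higher in any setting, and the cause of these differences was not tested. The count of 14 came with scaling by library size only, which kept 9 of the 10 genes. Over all genes, those called lower (647) numbered 1539 with DESeq2, 2633 at an unadjusted p and 65 to 3151 with a library left out, and those called higher (390) numbered 1000, 1989 and 47 to 3128. Other genes of the pathway called lower (8) numbered 39 with DESeq2 and 0 to 107 with a library left out, and those called higher (0) numbered 3 and 0 to 8.

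Some log2 fold changes turned their sign. With all 6 libraries those of *uqcrc2a* and *atp5mc3b* were near 0, while that of *cox8b* was -1.05 (standard error 1.02). That of *uqcrc2a* was 0.0037 in limma-voom, 0.042 with the span trend removed, 0.013 with the genes with a span only and -0.16 to 0.080 with a library left out. That of *atp5mc3b* was 0.24 with the span trend removed, 0.0087 with the genes with a span only and -0.10 to 0.072 with a library left out. Those of *sdha* (-0.040 to 0.40) and *cox8b* (-1.51 to 0.031) turned with a library left out, and that of *cox4i1* was 0.019 with the span trend removed. The paralog difference of *cox8b* to *cox8a* was -0.90 to 0.28 and that of *atp5if1b* to *atp5if1a* -0.10 to 0.12 with a library left out. The alternatives with the genes with a span only and the pairs matched by gene ID were chosen after seeing the data. Genes under 1 CPM, such as *cox8b* and *COX6A1* (ENSDARG00000054588), are limited by depth.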
